A study of Monodelphis domestica and Mus musculus with 26 samples.

Results

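Mouse testis cells that carried transcripts of the early meiotic genes Prdm9, Dmc1, Meiob, Hormad1, Spo11 and Sycp2 were examined across 3 single-cell libraries. The cells were chosen by measured values of their own: a cell was taken when the summed counts of these 6 genes were 2.5 or more, those of Ccna1, Aurka, Plk1 and Acrv1 below 1.5, those of Dmrt1 and Crabp1 below 1.5, and Prm1, Prm2, Tnp1 and Tnp2 together below 1% of its counts. The rule found 1461 of 25445 kept cells, 160, 135 and 1166 in libraries 1, 2 and 3, or 1.97%, 1.72% and 12.3% of each library. They are called early-marker cells here. The markers are those of early spermatocytes in leptotene and zygotene, and the data went with that stage for only a fraction of the cells, as described below.

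The study profiled testes of mouse and of the gray short-tailed opossum by single-cell and bulk RNA sequencing; only the 3 mouse single-cell libraries were used here. Each came from an enzymatic suspension of whole testis of adult mice, with no genetic change or treatment named in the labels, and was made with the 10x Genomics 3-prime kit, which counts one end of each RNA molecule with molecular identifiers (UMIs). The strain is given as C57BL6/J with libraries 1 and 2, and for library 3 only in the shared protocol, which names adult mice of 8 to 16 weeks. The labels do not say whether the libraries came from separate animals, so that the spread between them may be partly technical. Their totals were 65263953, 55044965 and 45395185 estimated counts, and the early-marker cells had medians of 4765, 5977 and 2377 counts. Libraries 1 and 2 shared 76 kept barcodes, libraries 1 and 3 shared 1, and libraries 2 and 3 none. Library 3 stood apart: it held 1166 of the 1461 early-marker cells, and after each cell had been thinned to 1000 counts the rule still took 7.68% of its cells against 0.848% and 0.319% of libraries 1 and 2. Values below are therefore given per library, as CPM, a gene's counts scaled to the summed counts of its cell group, in the order of libraries 1, 2 and 3.

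At the start of male meiosis, STRA8 and its partner MEIOSIN switch on meiotic genes while the chromosomes are copied for the last time. In leptotene the SPO11 complex cuts DNA at hotspots marked by PRDM9, and in zygotene DMC1 guides the cut ends to the homologous chromosome while the synaptonemal complex begins to join the pair. In pachytene pairing is complete, some cuts mature into crossovers, and the X and Y chromosomes, which lack a full partner, are transcriptionally silenced. Pachytene cells also switch on a large set of genes needed later by sperm, among them the heat-shock gene Hspa2 and the PIWI gene Piwil1.

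The name was first checked with each marker in turn. When the gate was rebuilt from the other 5 genes, the gene left out was more often detected in gated than in other kept cells in 18 of 18 combinations of gene and library. After thinning to 1000 counts per cell, Sycp2, an axis protein of meiotic chromosomes, was detected in 46.3%, 33.3% and 71.6% of gated cells and in 8.02%, 8.65% and 15.9% of the others. Meiob, a single-strand DNA binding protein of meiosis, was detected in 28.7%, 10.4% and 17.5% of gated cells and in 2.19%, 0.558% and 1.18% of the others. Prdm9 was the rarest, at 1.94%, 0.787% and 6.68% against 0.802%, 0.337% and 0.421%. In library 2 that share is 1 cell of 127. Without thinning, Sycp2 was detected in 90.4%, 85.2% and 92.1% of gated cells against 26.4%, 33.8% and 31.7% of the others, and Prdm9 in 7.10%, 2.36% and 13.8% against 2.29%, 0.986% and 1.25%. The other kept cells hold spermatids as well as later spermatocytes that can still carry these genes, and their shares stand as the background. Of 1504, 1660 and 2176 kept cells with a marker sum of 2.5 or more, 1004, 1478 and 818 had too many late-gene counts for the rule. The late gate described below had median marker sums of 5.86, 1.94 and 4.78, against 8.92, 5.74 and 6.83 in early-marker cells. The check uses a mixed background and so cannot tell early from later spermatocytes. At the edge of the rule, 16, 37 and 194 early-marker cells had a marker sum between 2.5 and 3.5, and 35, 41 and 332 cells that met all other conditions fell between 1.5 and 2.5.

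**Figure D1:**
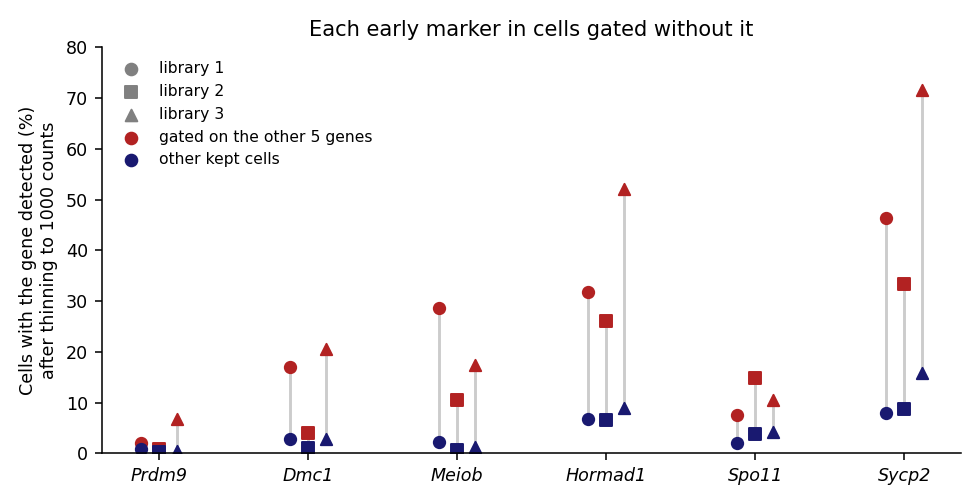
Share of cells in which each early marker was detected after thinning to 1000 counts, in cells gated on the other 5 markers (red) and in all other kept cells (dark), with 1 symbol shape per library. The gated share lies above the other share in all 18 pairs, from 0.787% against 0.337% for Prdm9 in library 2 to 71.6% against 15.9% for Sycp2 in library 3.

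The early-marker cells were not of a single stage. Summed counts of Piwil1, Pou5f2, Clgn and Hspa2, genes that rise in pachytene, were 2.5 or more in 69.4%, 83.0% and 39.5% of them (111, 112 and 461 cells) and below 1.5 in 23.8%, 16.3% and 44.3% (38, 22 and 516 cells). This division was made after the data had been seen and is a description without a test. The cells below 1.5 had 155, 243 and 122 CPM of Prdm9 and 469, 356 and 461 CPM of Dmc1. Those at 2.5 or more had 1.70, 0 and 6.33 CPM of Prdm9 and 41.6, 2.11 and 75.9 CPM of Dmc1, below the first band in every library. Spo11 ran the other way, with 48.6, 12.5 and 102 CPM below 1.5 and 105, 125 and 135 CPM at 2.5 or more. Sycp2, also a rule gene, lay between 476 and 1359 CPM across both bands and all libraries. Hormad1, an axis protein, had 350.0, 518 and 762 CPM in the lower and 498, 278 and 977 CPM in the upper band, and Meiob had 294, 65.0 and 199 CPM and 234, 67.9 and 163 CPM. Of the 6 rule genes, then, Prdm9 and Dmc1 were higher in the lower band and Spo11 in the upper band in all 3 libraries. Spo11 differed least in library 3, and Hormad1 and Meiob changed direction between libraries. In the lower-band sums a count of 0 allows up to 24.8, 66.8 and 2.43 CPM, and Spo11 of library 2 lay under that limit. Libraries 1 and 2 were made up mostly of the upper band. The bands are set on counts as found, and the lower band was the shallower, with medians of 2853, 2120.4 and 2178 counts against 6702, 7358 and 3260 (its part in the shares of the bands was not tested). All 6 genes chose the cells by their sum, so a cell with few counts of some had to carry others. These levels are a description. In the spermatogonia gate described next the same genes were at 5.31, 0 and 3.87 CPM for Prdm9 and 26.0, 28.9 and 28.4 CPM for Dmc1.

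The first comparison set the early-marker cells against spermatogonia, the cells that precede meiosis. These were taken as kept cells with summed Dmrt1, Crabp1, Sall4 and Zbtb16 of 2.5 or more, few early-marker, late or somatic transcripts (below 1.5, 1.5 and 2.5 counts) and under 1% protamine and transition-protein counts, which gave 90, 59 and 125 cells. A gene was called when the adjusted p was under 0.05 and the log2 fold change at least 1 in size, in edgeR's quasi-likelihood test on counts summed per library and group. Of 10003 genes tested, 2608 (26.1%) were called higher in the early-marker cells and 2034 (20.3%) lower. Both groups were gated on their own transcripts, so genes that run with the gate genes had to differ, and the gate genes themselves were not tested. The calls describe how these gated groups differ. The early-marker sums held 1173458, 907591 and 4095855 counts, of which the upper band of the 4-gene sum gave 1007234, 860506 and 2439352. The calls thus reflect the upper band more than the lower. The summed counts of a gate alone cannot tell fewer cells with a transcript from less of it per cell.

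Genes of the synaptonemal complex, the protein zipper between paired chromosomes, were higher. Of 8 tested, 6 were called higher and 0 lower, beside 26.1% and 20.3% of all genes. Their median log2 fold change was 2.12 against 0.09 over all genes tested. Sycp3, which forms the lateral elements along each chromosome, was at 182, 184 and 302 CPM in spermatogonia and at 2029, 907 and 1735 CPM in early-marker cells (log2 fold change 3.17 ± 0.30 SE, edgeR adjusted p = 1.4e-07). Every early-marker value lay above every spermatogonial one. Sycp1, the transverse filament that spans the zipper, was at 209, 304 and 580.4 CPM and 1785, 801 and 2114 CPM (log2 fold change 2.52 ± 0.31 SE, edgeR adjusted p = 2.6e-06). Tex12, a central element protein, was at 102, 107 and 100.1 CPM and 415, 291 and 318 CPM (log2 fold change 2.09 ± 0.28 SE, edgeR adjusted p = 7.9e-06), again without overlap. Syce2, another central element gene, was not called, at 409, 563 and 293 CPM in spermatogonia and 437, 218 and 336 CPM in early-marker cells, and Fkbp6 was not called either. Syce2 had 1173, 1386 and 646 CPM in the lower band of the 4-gene sum and 342, 155 and 154 CPM in the upper band, where each value lay below the spermatogonial value of its library.

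For these zipper genes and other lists, the 250 bases before the start of the canonical transcripts were read from the mouse genome GRCm39 (GENCODE vM39 annotation). The E-box CACGTG, a palindrome read the same on both strands, occurred in 5 of the 8 zipper promoters. It occurred in 1357 of 21502 promoters of protein-coding genes in the files, or 6.31%. The hexamer TCCCGC, searched on both strands, occurred in 3 of 8 and in 18.4% of all. In the other lists scanned the E-box occurred in 0% to 33.3% of promoters. It was in 0 of 7 telomere, 0 of 28 strand-invasion and 0 of 9 cohesin promoters. Of the telomere genes, described next, 6 of 7 were called higher. The motifs were chosen after the list's values were known, and a match is a description of the letters, not evidence of binding. The promoters of Sycp3, Sycp1 and Tex12, called higher, and of Syce2, which was not called, are printed 5′ to 3′ on the gene's strand, with both motifs in capitals (the reverse complement of TCCCGC reads GCGGGA). Sycp3 lies at chr10:88295181-88295430 on the plus strand, Sycp1 at chr3:102843456-102843705 on the minus strand, Tex12 at chr9:50472632-50472881 on the minus strand and Syce2 at chr8:85598490-85598739 on the plus strand.
Sycp3: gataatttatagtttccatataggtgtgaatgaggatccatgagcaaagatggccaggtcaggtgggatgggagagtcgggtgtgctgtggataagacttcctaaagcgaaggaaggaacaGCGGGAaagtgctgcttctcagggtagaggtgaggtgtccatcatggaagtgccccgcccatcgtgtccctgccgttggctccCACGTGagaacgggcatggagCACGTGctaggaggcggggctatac
Sycp1: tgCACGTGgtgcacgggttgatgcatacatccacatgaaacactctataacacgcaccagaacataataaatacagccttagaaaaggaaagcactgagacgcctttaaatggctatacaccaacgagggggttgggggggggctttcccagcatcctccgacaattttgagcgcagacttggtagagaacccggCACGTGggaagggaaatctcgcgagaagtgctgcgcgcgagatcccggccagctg
Tex12: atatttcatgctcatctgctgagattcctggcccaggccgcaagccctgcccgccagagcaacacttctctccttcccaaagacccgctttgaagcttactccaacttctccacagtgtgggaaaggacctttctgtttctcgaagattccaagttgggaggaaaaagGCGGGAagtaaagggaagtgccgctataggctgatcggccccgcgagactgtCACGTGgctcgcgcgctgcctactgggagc
Syce2: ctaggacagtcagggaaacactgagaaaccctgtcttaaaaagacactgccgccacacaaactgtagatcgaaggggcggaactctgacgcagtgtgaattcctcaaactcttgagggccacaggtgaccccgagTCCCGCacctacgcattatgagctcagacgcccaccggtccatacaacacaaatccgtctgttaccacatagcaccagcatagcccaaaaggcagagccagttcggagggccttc
Sycp3 and Sycp1 held 2 E-boxes each, Tex12 held 1 and Syce2 held 0. Fkbp6, which was not called, held 1 as well, while Syce1 and Syce3, both called higher, held 0.

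Genes that tie chromosome ends to the nuclear envelope, through which the chromosomes are moved to find their partners, were higher as well. Of these, 6 of 7 were called higher and 0 lower, beside 26.1% and 20.3% of all genes. Their median log2 fold change was 3.26. Kash5, the link to the dynein motor, was at 6.61, 9.10 and 2.77 CPM in spermatogonia and 150.2, 114 and 78.7 CPM in early-marker cells (log2 fold change 4.62 ± 0.46 SE, edgeR adjusted p = 2.2e-07). Spdya, the activator that carries CDK2 to telomeres, was at 9.48, 14.6 and 25.8 CPM and 269, 359 and 275 CPM (log2 fold change 4.41 ± 0.38 SE, edgeR adjusted p = 4.9e-08). The groups did not overlap for either gene. The telomere adaptors Terb1 and Majin had log2 fold changes of 3.34 ± 0.43 (SE) and 3.26 ± 0.45 (SE), and Cdk2 itself was not called (23.7, 3.40 and 48.0 CPM against 21.6, 9.91 and 57.3 CPM).

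Of 26 genes of DNA end resection and strand invasion tested, 8 were called higher and 4 lower, close to the 26.1% and 20.3% of all genes, so the list as a whole did not stand apart. Psmc3ip, whose product HOP2 assists DMC1, was at 84.0, 57.6 and 42.5 CPM in spermatogonia and 541, 709 and 323 CPM in early-marker cells (log2 fold change 3.36 ± 0.32 SE, edgeR adjusted p = 1.6e-07). Hsf2bp, which brings BRCA2 to meiotic breaks, was at 33.8, 31.8 and 21.2 CPM and 209, 198 and 158 CPM (log2 fold change 3.09 ± 0.33 SE, edgeR adjusted p = 5.3e-07). The 4 called lower, Rpa2, Brca1, Rad50 and Exo1, also serve repair in dividing cells, and only the call of Rad50 was kept when any 1 library was left out. Brca1 was at 50.2, 34.4 and 132 CPM in spermatogonia and 10.4, 13.7 and 63.2 CPM in early-marker cells, and its edgeR adjusted p was 0.21 without library 1.

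The 12 crossover genes tested had 8 called higher and 1 lower, beside 26.1% and 20.3% of all genes. Without library 1 the higher calls were 3 of 12, close to the 20.5% of all genes in that fit. They were 5 of 11 without library 3, beside 25% of all genes. Cntd1, a cyclin-like factor needed to settle which sites become crossovers, showed no overlap, at 6.88, 4.12 and 10.3 CPM in spermatogonia and 285, 226 and 196 CPM in early-marker cells (log2 fold change 5.17 ± 0.41 SE, edgeR adjusted p = 2.1e-08). Hfm1, a helicase of crossover intermediates, was at 7.21, 11.0 and 27.1 CPM and 75.2, 44.3 and 259.9 CPM (log2 fold change 3.37 ± 0.40 SE, edgeR adjusted p = 1.5e-06). The 1 gene called lower, Tex11, is X-linked; it was at 103, 126 and 206 CPM in spermatogonia and 26.0, 7.46 and 112 CPM in early-marker cells.

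Genes of DNA damage signalling and sex-chromosome silencing split, with 7 of 13 called higher and 4 lower, beside 26.1% and 20.3% of all genes. Mdc1, which spreads the phosphorylated histone H2AX over the sex chromosomes, was at 19.4, 36.9 and 31.0 CPM in spermatogonia and 164, 105 and 215 CPM in early-marker cells (log2 fold change 2.97 ± 0.35 SE, edgeR adjusted p = 1.6e-06). H2ax itself was at 13.9, 70.8 and 56.7 CPM and 314, 172 and 232 CPM (log2 fold change 2.90 ± 0.42 SE, edgeR adjusted p = 1.8e-05). For both genes the groups did not overlap. The checkpoint kinases Chek1 and Chek2, the remodeller Trip13 and the X-linked Scml2 made up the 4 called lower. The call of Chek1 was lost without library 1 (edgeR adjusted p = 0.12) and that of Scml2 without library 2 (log2 fold change -0.92).

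Of 11 break-formation genes tested, 1 was called higher (Hormad2) and 2 lower (Rec114 and Mei4), beside 26.1% and 20.3% of all genes. The median log2 fold change was -0.11. These calls pool bands that lay on either side of spermatogonia in the list's summed CPM. The sums were 1595, 1650 and 2078 CPM in the lower band and 518, 392 and 962 CPM in the upper band. Spermatogonia had 826, 790 and 1016 CPM. Rec114, a partner of MEI4, was at 121, 139 and 49.4 CPM in spermatogonia and 16.7, 10.7 and 15.5 CPM in early-marker cells. The call of Mei4 was lost without library 1 (edgeR adjusted p = 0.078). Stra8 itself was at 329, 341 and 235 CPM in spermatogonia and 119, 65.9 and 157 CPM in early-marker cells (log2 fold change -1.04 ± 0.29 SE, edgeR adjusted p = 0.0064), a call that was lost without library 1 (adjusted p = 0.067) and without library 2 (log2 fold change -0.81). DNA replication genes had 9 of 20 called lower and 0 higher, with a median log2 fold change of -0.88. These calls pool the bands as well. The list summed to 2307, 2545 and 2247 CPM in spermatogonia. It summed to 2005, 2969 and 1718 CPM in the lower band and 1398, 1227 and 1155 CPM in the upper band. The lower band was thus below spermatogonia in libraries 1 and 3 and above them in library 2. The upper band was below them in every library. Mcm2, a subunit of the replicative helicase, was at 149, 179 and 152 CPM in spermatogonia and 4.09, 2.20 and 13.7 CPM in early-marker cells (log2 fold change -4.07 ± 0.41 SE, edgeR adjusted p = 3e-07). Of 13 spermatogonial genes tested, 11 were called lower. Uchl1, a deubiquitinase abundant in spermatogonia, was at 1079, 911 and 665 CPM in them and 43.1, 19.0 and 41.0 CPM in early-marker cells (log2 fold change -4.28 ± 0.31 SE, edgeR adjusted p = 9e-09). The single gene called higher was Id4, known as a mark of spermatogonial stem cells, with 29.0, 3.37 and 6.64 CPM in gated spermatogonia and 212, 305 and 98.8 CPM in early-marker cells (log2 fold change 4.02 ± 0.42 SE, edgeR adjusted p = 4.5e-07).

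Genes of the pachytene programme, which prepare metabolism and motility of the later sperm, were higher in early-marker cells, with 12 of 14 called higher and 0 lower and a median log2 fold change of 3.25. Ldhc, the lactate dehydrogenase of sperm, was at 73.2, 494 and 17.4 CPM in spermatogonia and 4132, 7375 and 1535 CPM in early-marker cells (log2 fold change 5.62 ± 0.38 SE, edgeR adjusted p = 5.7e-09). Meig1, needed to build the sperm tail, was at 122, 299 and 4.23 CPM and 3016, 4492 and 1519.5 CPM (log2 fold change 5.39 ± 0.45 SE, edgeR adjusted p = 3.7e-08). Every early-marker value of both genes was above every spermatogonial value, and library 3 had the lowest of the early-marker values. The piRNA pathway, which silences transposons with small RNAs, had 8 of 16 called higher and 3 lower, the latter close to the 20.3% of all genes. Tdrd1, a scaffold of its granules, was at 43.0, 31.6 and 89.0 CPM and 134, 168 and 233 CPM (log2 fold change 2.04 ± 0.33 SE, edgeR adjusted p = 4.7e-05), while Piwil4, a PIWI protein of fetal and stem germ cells, was at 5.64, 16.9 and 17.6 CPM and 0, 0 and 0.482 CPM. Of 7 cohesin genes, only the meiotic Stag3 was called higher (36.3, 68.6 and 82.0 CPM against 95.8, 98.0 and 247 CPM), and 3 subunits shared with mitosis, Smc1a, Rad21 and Stag2, were called lower. Rad21 was at 116, 126 and 176 CPM in spermatogonia and 10.9, 5.45 and 38.5 CPM in early-marker cells (log2 fold change -2.69 ± 0.37 SE, edgeR adjusted p = 9.6e-06). Of 7 genes of meiotic entry, Ythdc2 and Meioc, partners in ending the mitotic programme, were called higher, and Stra8, Rara and Rarg lower. The 2 higher calls of 7 were close to the 26.1% of all genes. These calls pool the bands too. The 10 genes of the list summed to 1859, 2108.5 and 2091 CPM in spermatogonia. They summed to 3633, 3812 and 3194 CPM in the lower band and 1673, 470 and 1879 CPM in the upper band. Of 14 genes of mitotic division 4 were called higher and 3 lower, close to the 26.1% and 20.3% of all genes, and 1 and 2 without library 1. The 9 histone genes had 2 called higher, H2az1 and H3f3b, close to the 26.1% of all genes, and 0 lower.

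**Figure D2:**
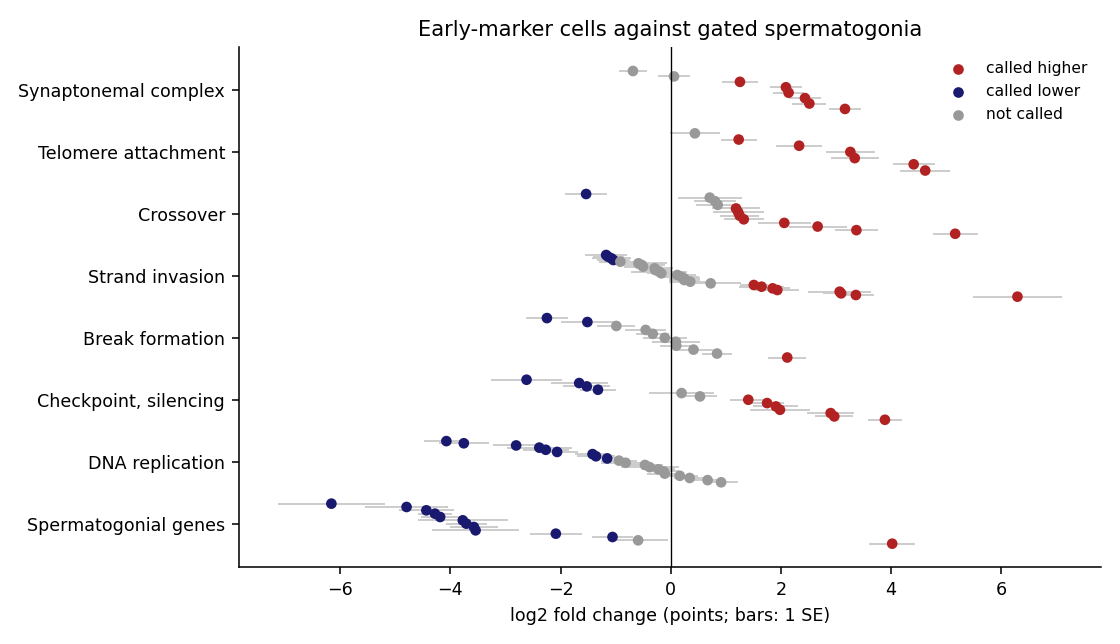
Log2 fold change of early-marker cells against gated spermatogonia for each tested gene of 8 lists, with 1 SE as a bar; red was called higher, dark lower and grey neither. Synaptonemal complex and telomere genes lie to the right (6 of 8 and 6 of 7 called higher), while 9 of 20 replication genes and 11 of 13 spermatogonial genes lie to the left as called lower.

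Outside the lists, the genes with the largest difference were close to absent in one group. Elfn2, a synaptic membrane protein gene, was at 210.2, 148 and 200.1 CPM in early-marker cells and at 0 in all 3 spermatogonial sums. Smpd5, a sphingomyelinase gene, was at 217, 358 and 109 CPM against 0 in all 3. A count of 0 in those sums allows up to 5.64, 17.4 and 5.93 CPM. Cers3, a ceramide synthase gene, was at 162, 178 and 115 CPM against 0, 2.39 and 0.405 CPM. In the other direction, the transcription factor gene Pou3f1 was at 69.5, 80.2 and 96.5 CPM in spermatogonia and 0.803, 0 and 2.03 CPM in early-marker cells. The X-linked homeobox gene Rhox10 was at 67.6, 69.5 and 25.2 CPM against 0 in all 3 early-marker sums.

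The second comparison lay within the early-marker cells, between those with Stra8 detected (a count of 0.5 or more; 29, 19 and 245 cells) and the rest (131, 116 and 921 cells). Stra8 took no part in the rule. Of 9648 genes tested, 1169 (12.1%) were called higher and 1742 (18.1%) lower in Stra8-detected cells. The calls were 513 (5.79%) and 849 (9.58%) of 8863 without library 1, and 664 (9.09%) and 681 (9.33%) of 7302 without library 3. The Stra8-detected cells had medians of 3378, 2211 and 2314 counts against 5169, 7130 and 2423 in the other cells, so that they were the shallower group in each library. The Stra8-detected sum of library 2 held 41403 counts, where a value of 0 allows up to 72.5 CPM; that of library 1 allows 24.4 CPM and that of library 3 4.72 CPM. Both groups come from the same gate, and genes that run with Stra8 from cell to cell had to differ.

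Break-formation genes were higher in Stra8-detected cells, with 8 of 11 called higher and 0 lower, beside 12.1% and 18.1% of all genes. Their median log2 fold change was 1.92 against -0.09 over all genes. Mei1, required for SPO11-dependent breaks, was at 223, 362 and 224 CPM in Stra8-detected cells and 2.78, 6.81 and 11.9 CPM in the others (log2 fold change 4.67 ± 0.40 SE, edgeR adjusted p = 2.8e-13). Mei4, part of the complex that activates SPO11, was at 73.3, 72.2 and 104 CPM and 0.952, 0 and 13.4 CPM (log2 fold change 3.75 ± 0.61 SE, edgeR adjusted p = 1.6e-06). The values did not overlap for either gene. Atm, the kinase that limits the number of breaks, was at 128, 144 and 349 CPM and 14.1, 12.1 and 40.9 CPM (log2 fold change 2.94 ± 0.37 SE, edgeR adjusted p = 4.5e-09). Rec114 was at 113, 96.4 and 44.3 CPM and 5.42, 6.63 and 10.2 CPM (log2 fold change 2.84 ± 0.59 SE, edgeR adjusted p = 0.00011), and without library 1 its edgeR adjusted p was 0.065. Spo11, a rule gene and so untested, ran against its partners at 15.8, 13.6 and 62.0 CPM and 108, 124 and 137 CPM.

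The counts of this paragraph stand beside 12.1% higher and 18.1% lower over all genes. Without library 1 and without library 3, 5.79% and 9.09% of all genes were called higher. Cohesin genes had 5 of 9 called higher and 0 lower. The higher calls were 2 of 9 without library 1 and 2 of 4 without library 3, where fewer genes passed the low-count filter. Rec8, the meiotic kleisin that holds sister chromatids together, was at 54.7, 59.9 and 26.9 CPM and 1.72, 0 and 4.69 CPM (log2 fold change 3.65 ± 1.08 SE, edgeR adjusted p = 0.0061), with an adjusted p of 0.11 in edgeR without library 1. Smc3, a core subunit, was at 645, 830.4 and 716 CPM and 87.6, 13.8 and 167 CPM (log2 fold change 2.88 ± 0.34 SE, edgeR adjusted p = 9.7e-10). Meiosin, the partner of Stra8, was at 32.4, 48.3 and 121 CPM against 0, 1.15 and 13.6 CPM (log2 fold change 3.54 ± 0.64 SE, edgeR adjusted p = 1.1e-05). Of 7 spermatogonial genes tested, 4 were called higher (Kit, Uchl1, Sohlh1 and Rhox13) and 1 lower (Id4), with 1 of 4 higher and 1 lower without library 3. The 16 of that list summed to 584, 769.7 and 535 CPM with and 364, 347 and 249 CPM without Stra8, against 2149.6, 1976 and 1906 CPM in spermatogonia, and their part in the differences of the other lists was not tested. DNA replication genes had 14 of 19 called higher and 0 lower, and 7 of 19 higher without library 1 and 7 of 16 without library 3. Rrm2, which makes deoxynucleotides, was at 127, 257 and 104 CPM against 9.87, 7.04 and 12.4 CPM (log2 fold change 3.41 ± 0.41 SE, edgeR adjusted p = 1.2e-09), and the DNA ligase gene Lig1 at 267, 240.0 and 237 CPM against 24.9, 29.3 and 57.4 CPM. Of the strand-invasion genes, 8 of 26 were called higher and 3 lower. The higher calls were 2 of 26 without library 1 and 2 of 24 without library 3. Those were close to the 5.79% and 9.09% of all genes in the same fits. Psmc3ip was among those lower, at 191, 189 and 129 CPM against 582, 734 and 359 CPM.

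Of the synaptonemal complex genes, set beside 12.1% higher and 18.1% lower over all genes, 1 of 8 was called higher (Syce2, at 936, 1503 and 734 CPM against 378, 157 and 263 CPM) and 0 lower. Sycp1 had 1184, 1042 and 1799 CPM in Stra8-detected cells and 1856, 789 and 2172 CPM in the others, with overlapping values and a log2 fold change of -0.56 ± 0.28 (SE).

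Genes of the pachytene programme were lower in Stra8-detected cells, with 12 of 15 called lower and 0 higher and a median log2 fold change of -1.97. Ldhc, the sperm lactate dehydrogenase, was at 1301, 566 and 279.6 CPM in Stra8-detected cells and 4464, 7700.5 and 1765 CPM in the others (log2 fold change -3.00 ± 0.34 SE, edgeR adjusted p = 2.8e-10). In each library the level with Stra8 lay between that of spermatogonia, given above, and that of the other early-marker cells. The piRNA pathway had 10 of 15 called lower and 1 higher; the lower calls were 4 of 15 without library 1 and 4 of 14 without library 3. Tdrd5, a Tudor protein of piRNA granules, was at 60.6, 0 and 34.1 CPM against 140.3, 125 and 245 CPM (log2 fold change -2.66 ± 0.41 SE, edgeR adjusted p = 5.5e-07); without library 3 its adjusted p was 0.051. The 1 called higher was Tex15, which is needed for transposon silencing, at 374, 574 and 1356 CPM against 24.0, 5.60 and 256 CPM (log2 fold change 3.38 ± 0.36 SE, edgeR adjusted p = 8.3e-11). The crossover list had 2 of 12 called higher and 2 lower, close to the 12.1% and 18.1% of all genes, and a median log2 fold change of -0.044. The 2 higher were Tex11, at 181, 96.1 and 319 CPM against 7.88, 3.22 and 74.4 CPM, and Shoc1, an early crossover factor, at 122, 94.9 and 218 CPM against 23.6, 9.71 and 67.2 CPM. The 2 lower were Cntd1, at 56.8, 34.1 and 59.4 CPM against 312, 235 and 221 CPM, and Mlh3, an endonuclease subunit that resolves crossovers, at 7.78, 0 and 21.7 CPM against 33.8, 66.0 and 129 CPM. Mlh3 was not called without library 3 (edgeR adjusted p = 0.077).

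**Figure D3:**
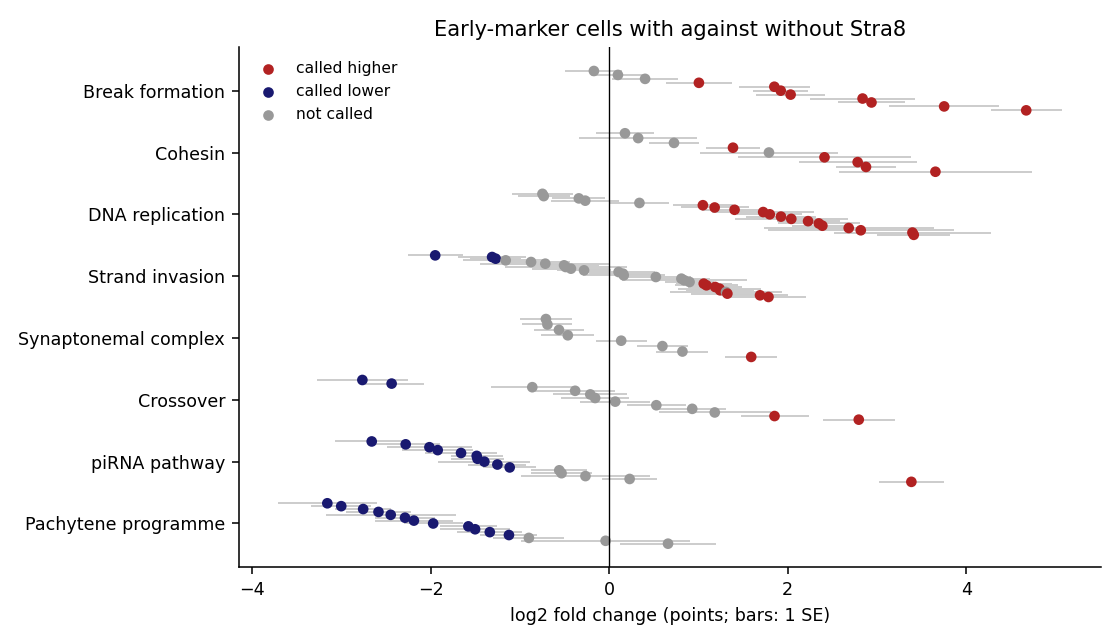
Log2 fold change of early-marker cells with Stra8 against those without, for each tested gene of 8 lists, with 1 SE as a bar; red was called higher, dark lower and grey neither. Break-formation, cohesin and replication genes lie to the right (8 of 11, 5 of 9 and 14 of 19 called higher), and piRNA and pachytene genes to the left (10 of 15 and 12 of 15 called lower).

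The lists were also followed as summed CPM from spermatogonia through the lower and upper band of the 4-gene sum to a late gate (Ccna1, Aurka and Plk1 of 2.5 or more; 625, 1822 and 632 cells). This order was set up after the data had been seen, and its levels are given without a test. Break-formation genes summed to 826, 790.3 and 1016 CPM in spermatogonia, 1595, 1649.7 and 2078 CPM in the lower band, 518, 392 and 962 CPM in the upper band and 184, 148 and 248 CPM in late cells. Synaptonemal complex genes summed to 1869.9, 2031 and 2285 CPM, 6812, 5046 and 6986 CPM, 6022, 3346 and 5211 CPM and 1859, 1393 and 1505 CPM in the same order. Telomere genes were at 712, 558 and 783 CPM in the lower and 763, 717 and 806 CPM in the upper band. They were at 114, 119 and 167 CPM in spermatogonia and at 595, 569 and 656 CPM in late cells. The pachytene programme had 1568, 1606 and 1643 CPM in the lower band and 10071, 15241 and 7066 CPM in the upper band, and went on to 20842, 20992 and 16286 CPM in late cells. Cohesin genes summed to 1053, 1155 and 1800.3 CPM, 1977, 2234 and 3248 CPM, 735, 554 and 1316 CPM and 426, 420.4 and 731 CPM. Among these 4 groups the lower band thus had the most break-formation and cohesin transcripts in each library. Stra8-detected cells, which overlap the lower band, were higher still, at 1697, 1810.0 and 2421 CPM for break formation and 2097, 2372 and 3912 CPM for cohesin.

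**Figure D4:**
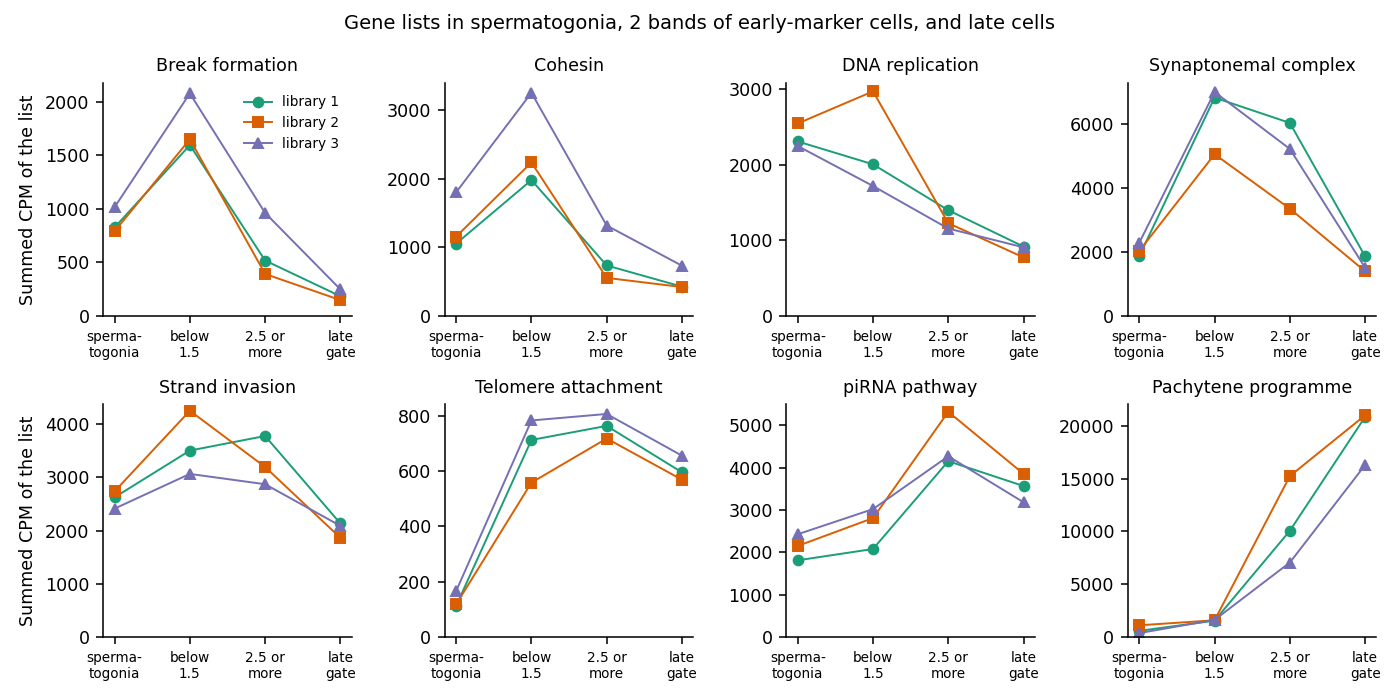
Summed CPM of 8 gene lists (y axis, from 0) in spermatogonia, in early-marker cells with a 4-gene sum below 1.5 and of 2.5 or more, and in late cells, with 1 line per library. Break-formation genes are highest in the band below 1.5 in all 3 libraries (1595, 1650 and 2078 CPM). The pachytene programme rises at each step, which the gates, cut on pachytene and later genes, largely fixed.

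The X chromosome divided the early-marker cells as well. X-linked genes made up 0.495%, 0.168% and 1.02% of their counts, against 1.87%, 1.99% and 2.17% in spermatogonia. The groups did not overlap (two-sided exact permutation p = 0.1, the smallest that 3 against 3 allows; adjusted over 3 comparisons, 0.3). All other kept cells had 1.05%, 0.859% and 1.18% (exact permutation p = 0.2, adjusted 0.3). The pachytene gate described below had 0.314%, 0.780% and 1.39% (exact permutation p = 0.6); the value of library 1 rests on 8 cells and 65 X-linked counts, and nothing is read from this gate. These tests do not use the pairing by library. Within each library the early-marker share was below that of spermatogonia and below that of all other kept cells, in 3 of 3 libraries each. Within the early-marker cells the share was 1.93%, 2.36% and 2.34% where Stra8 was detected and 0.327%, 0.0625% and 0.773% where it was not. By the 4-gene sum it was 2.16%, 2.36% and 2.15% below 1.5 and 0.266%, 0.0463% and 0.353% at 2.5 or more. The late gate had 0.136%, 0.222% and 0.154%. Cells with Stra8 or with a low 4-gene sum were therefore near the spermatogonial level, cells with a high 4-gene sum were at 0.353% or less, and cells without Stra8 in library 3 lay between.

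Counted cell by cell, 57.5%, 82.2% and 37.3% of early-marker cells had under 0.5% of their counts on the X, 26.9%, 15.6% and 50.4% had 1.5% or more, and 15.6%, 2.22% and 12.3% lay between. No spermatogonium fell under 0.5% in any library. Among cells with a 4-gene sum below 1.5, 84.2%, 90.9% and 79.3% had 1.5% or more, and among those at 2.5 or more, 79.3%, 98.2% and 70.1% had under 0.5%. Library 2 was the most divided, with 2.22% of its early-marker cells in the middle class, and library 3 had the largest share of cells on the high side.

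**Figure D5:**
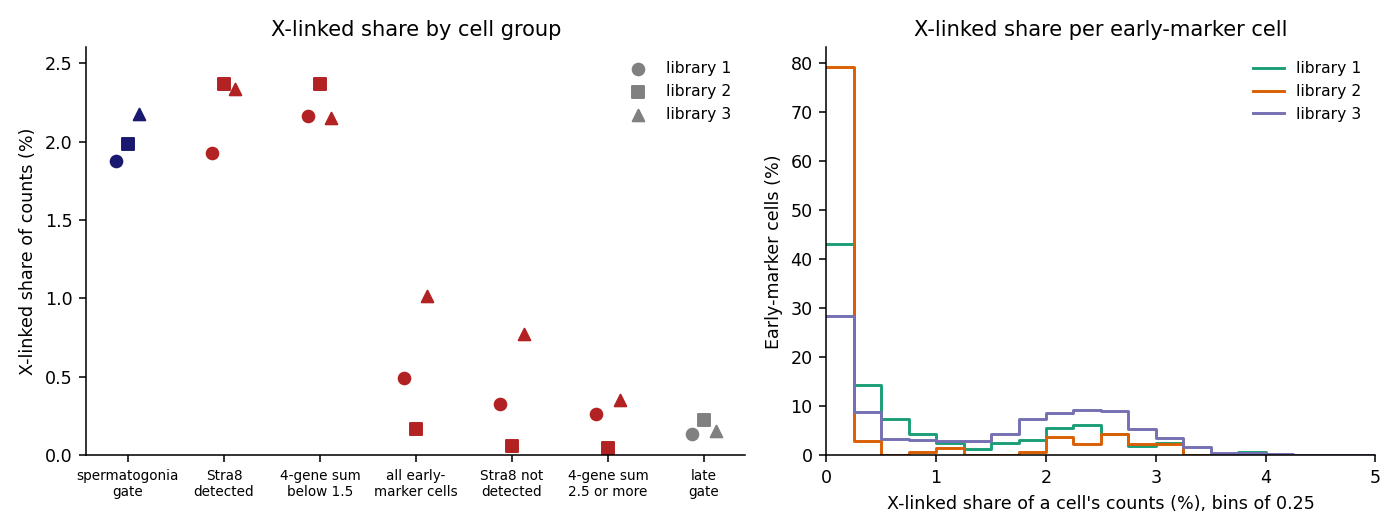
Left, X-linked share of summed counts in each cell group, with 1 symbol shape per library; right, distribution of the X-linked share over early-marker cells in bins of 0.25 percentage points, 1 line per library. Spermatogonia and Stra8-detected cells lie between 1.87% and 2.36%, cells with a 4-gene sum of 2.5 or more between 0.0463% and 0.353%, and single cells gather near 0 and above 1.5%.

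Gene by gene, 188 of 290 X-linked genes tested (64.8%) were called lower in early-marker cells than in spermatogonia and 4 higher, while 19.0% of the other genes were called lower. Between Stra8-detected and other early-marker cells, 158 of 277 X-linked genes (57.0%) were called higher and 0 lower, with a median log2 fold change of 2.23; of other genes 10.8% were called higher. The number was 92 of 240 without library 1 and 85 of 108 without library 3, again with 0 lower. Taf7l, a germ-cell subunit of the transcription factor TFIID, was at 531, 696 and 627 CPM in Stra8-detected cells and 48.7, 4.55 and 142 CPM in the others (log2 fold change 3.20 ± 0.37 SE, edgeR adjusted p = 4.9e-10). Rhox13, a homeobox gene of spermatogonia and early spermatocytes, was at 300.4, 458 and 187 CPM and 10.0, 1.15 and 27.8 CPM (log2 fold change 3.93 ± 0.41 SE, edgeR adjusted p = 4.9e-11). Scml2, a Polycomb-like protein needed for the sex-chromosome pattern of meiosis, was at 146, 72.2 and 369.8 CPM and 19.0, 3.45 and 167 CPM (log2 fold change 1.70 ± 0.38 SE, edgeR adjusted p = 0.00029). Its values overlapped between the groups, and its edgeR adjusted p was 0.098 without library 1.

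Several X-linked housekeeping genes have a copy on an autosome that is transcribed in meiosis, and of 16 genes of such pairs tested between cells with and without Stra8, 5 were called higher and 5 lower, beside 12.1% and 18.1% of all genes. The calls were 4 higher and 2 lower of 16 without library 1, and 5 higher and 3 lower of 12 without library 3. The X-linked ribosomal gene Rpl10 was at 417, 352 and 122 CPM with and 37.6, 3.37 and 32.6 CPM without Stra8, and its autosomal copy Rpl10l at 41.7, 129 and 28.1 CPM and 96.6, 75.5 and 112 CPM. Rpl39 was at 352, 429 and 457 CPM with and 48.2, 0.504 and 97.3 CPM without Stra8, and its autosomal copy Rpl39l at 436, 257 and 327 CPM and 1024, 732 and 682 CPM. The X-linked genes were higher with Stra8 in all 3 libraries, and the copies lower in all 3 except Rpl10l in library 2. Without library 1 the calls of Rpl10l and Rpl39l were lost (edgeR adjusted p = 0.17 and 0.058). Pdha2, the autosomal pyruvate dehydrogenase subunit, was at 16.9, 21.8 and 9.39 CPM in spermatogonia and 344, 395 and 198 CPM in early-marker cells (log2 fold change 4.64 ± 0.36 SE, edgeR adjusted p = 1.7e-08), while the X-linked Pdha1 was at 29.8, 28.7 and 24.7 CPM and 1.29, 1.82 and 4.34 CPM. Pgk2, the autosomal copy of Pgk1, was not called against spermatogonia, at 15.7, 51.7 and 0 CPM and 30.5, 27.3 and 23.9 CPM, and reached 189, 292 and 108 CPM in late cells. Reads of such near-identical copies may be split between them, which makes these levels uncertain.

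Against all other kept cells, the comparison on which the rule itself is built, values are a description. Of 20534 genes, 15.4% passed the same limits as higher in early-marker cells and 35.2% as lower. Outside the lists Tex101, a germ-cell surface protein gene, was at 3103, 1379 and 843 CPM in early-marker cells and 247, 49.5 and 73.8 CPM in the rest, and Gml, which like Tex101 encodes a protein of the LY6 family, at 821, 383 and 188 CPM and 56.4, 12.9 and 16.5 CPM. Prss50, a testis protease gene, was at 268, 56.4 and 119.8 CPM and 26.8, 3.73 and 8.12 CPM. Within the early-marker cells Prss50 ran with the lower band of the 4-gene sum, at 1012, 1067 and 218 CPM against 167, 0.345 and 55.5 CPM. The transcription factor gene Pbx3 was at 63.8, 24.4 and 397 CPM and 9.73, 2.06 and 18.3 CPM, with its highest value in library 3.

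A comparison with pachytene cells was planned, but the gate for them (4-gene sum of 2.5 or more with few early or late transcripts) gave 8, 69 and 319 cells of low depth, and library 1 was left out of the fit. Of 9524 genes tested, 6.34% were called higher in early-marker cells and 15.3% lower by edgeR. All 5 Sertoli, 3 Leydig and 4 stromal genes tested were called lower in early-marker cells, so that the gate also held somatic transcripts, and its calls are not read further. Cald1, a gene of smooth muscle, was among those lower, at 28.4 and 212 CPM in libraries 2 and 3 of that gate and at 0.419 and 6.43 CPM in early-marker cells.

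Transcripts of other cell types were measured in the early-marker cells as well. The 6 Leydig genes summed to 28.9, 5.27 and 114 CPM against 505, 704 and 525 CPM in all other kept cells, and the 10 round spermatid genes to 287, 334 and 175 CPM against 2914, 2946 and 2967 CPM. The 9 Sertoli genes summed to 471, 36.4 and 264 CPM against 329, 127 and 319 CPM; of these Ctsl and Clu gave the most in library 1, and Sox9 was at 1.70, 0 and 2.05 CPM. Clu was called higher than in spermatogonia (14.3, 30.6 and 7.43 CPM against 116, 1.70 and 25.1 CPM), and without library 1 its log2 fold change was -0.048. The 6 endothelial genes summed to 59.0, 44.0 and 28.6 CPM in spermatogonia and 5.80, 3.34 and 8.65 CPM in early-marker cells. The 7 immune genes summed to 115, 4.65 and 46.9 CPM and 3.40, 1.70 and 14.4 CPM. Sertoli, Leydig and stromal sums changed direction between libraries. The part of these transcripts in the spermatogonia calls was not tested.

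Such transcripts also differed between the bands. In the lower band of the 4-gene sum the Sertoli genes summed to 580.4, 415 and 476 CPM against 465, 14.8 and 149 CPM in the upper band, most of it Ctsl, with Sox9 at 0, 0 and 5.53 CPM in the lower band. The Leydig genes summed to 85.4, 98.5 and 292 CPM against 20.8, 0 and 41.4 CPM. Both lists were thus higher in the lower band in all 3 libraries. So were the 6 endothelial genes, at 24.1, 35.2 and 16.6 CPM against 3.85, 1.69 and 4.72 CPM. The 5 erythroid genes ran the other way, at 0, 0 and 6.13 CPM against 5.18, 95.5 and 189 CPM. The 7 immune genes did too, at 0, 0 and 4.79 CPM against 3.96, 1.79 and 19.8 CPM. A count of 0 in the lower-band sums allows up to 24.8, 66.8 and 2.43 CPM per gene. In libraries 1 and 2 the lower-band endothelial, erythroid and immune sums lay under this limit. Their direction there is uncertain. The 7 stromal genes summed to 400.3, 0 and 65.0 CPM against 0.993, 3.32 and 75.0 CPM, most of it Dcn in library 1. Spermatogonial genes summed to 478, 794 and 431 CPM in the lower and 373, 342 and 239 CPM in the upper band, and round spermatid genes to 424, 661 and 141 CPM and 273, 314 and 188 CPM. The former were higher in the lower band in all 3 libraries and the latter in libraries 1 and 2. Between cells with and without Stra8, the Sertoli genes were at 421, 258 and 348 CPM and 477, 25.8 and 248 CPM. The Leydig genes were at 65.3, 85.7 and 7.90 CPM and 24.6, 1.43 and 134 CPM, and the stromal genes at 395, 0 and 65.5 CPM and 0.952, 3.30 and 65.6 CPM. The hemoglobin gene Hbb-bs was at 0, 66.3 and 65.0 CPM in early-marker cells and at 0 in spermatogonia and in Stra8-detected cells. A count of 0 in the Stra8-detected sums allows up to 24.4, 72.5 and 4.72 CPM, which is below the early-marker value only in library 3. Mitochondrial transcripts made up 2.93%, 1.07% and 5.96% of the early-marker counts and 4.19%, 3.48% and 7.00% of the spermatogonial ones. In the lower band they were 3.89%, 3.43% and 7.16% and in the upper band 2.78%, 0.943% and 4.88%, lower in each library. The part of these transcripts in the differences above was not tested.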

How the data were processed

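Adult mouse testis suspensions were profiled with 10x Genomics 3-prime libraries. The deposited matrices hold estimated counts per gene and cell barcode that are not all whole; Cell Ranger 6.0.1 and the mm39 genome are named, per the submitters' processing notes, and why values are not whole is not given in the sources used here. Cells with at least 1000 counts and 500 genes were kept. Doublets were scored with Scrublet (scanpy 1.11.5) and removed only in an alternative, the 8% of highest score. Estimated counts were summed per library and cell group and rounded to whole numbers, and sums of the spermatogonia and pachytene gates with under 20 cells were left out of the edgeR fits. Sums were tested in R 4.3.3 with edgeR 4.0.16 (quasi-likelihood, TMM scaling, low-count filter, library as block, Benjamini-Hochberg adjustment), with an approximate SE taken from the F statistic. The library block pairs the groups because both come from the same suspension. DESeq2 1.42.0, other scaling, filters, gates and leaving out libraries were alternatives. The procedure was tested on simulated data. X-linked genes were taken from GENCODE vM39.

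Genes were named from lists of pathways and cell types, led by those with the largest change. Outside the lists, genes came from the 10 largest changes in each direction among called genes with at least 50 CPM and no overlap between groups. Members and lists were chosen with earlier results of these data known. Depth limits precision: p-values measure the spread between these 3 libraries only, and intervals for zero counts cover counting error only (3 counts per sum).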

Additional observations from a re-analysis of the deposited data

How the results depend on the processing

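The count of called genes moved with the treatment of the library as a block. With the library block, which pairs the groups of 1 suspension, 10384 genes were called against all other cells, 4642 against spermatogonia, 2060 against the pachytene gate and 2911 between cells with and without Stra8. Without the block the counts were 6561, 2897, 0 and 1027; for the pachytene gate 1294 genes had an unadjusted p under 0.05 by edgeR and DESeq2 with the block called 1273. The pachytene count was 578 with cells of at least 2000 counts, and the DESeq2 calls were 238 higher and 1035 lower against 604 and 1456. Leaving out 1 library gave 6606 to 9251 calls against all other cells, 3220 to 4434 against spermatogonia and 1345 to 2811 for the Stra8 division; it was not possible for the pachytene gate, where 1 pair of libraries is fitted. The cause of these differences was not tested.

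Of 741 values of 68 named calls under the alternatives, 694 kept direction and call, 46 kept direction without the call and 1 reversed, Clu against spermatogonia with 1 library left out (log2 fold change from -0.048 without library 1 to 2.76 without library 2). Of the 46, 16 came without the block. The X-linked share minus that of spermatogonia was between -1.60 and -1.27 percentage points under the alternatives run. The held-out markers were higher in 18 of 18 comparisons under the alternatives that kept all 3 libraries. The 12 of 12 with 1 library left out followed from the main result, because the same values were counted. The number of X-linked genes called higher with Stra8 was 65 of 213 without the block, and in the counts without single libraries, chosen after seeing the data, 85 to 162. Depth limits the Stra8 division most in library 2.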
